A study of Homo sapiens with 27 samples.

Results

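The 33 genes described here encode the enzymes of cholesterol and fatty acid synthesis and the regulators and carriers that act with them. They were taken by symbol from a list of the pathway's genes, and 33 of 33 were found among the 60683 genes of the deposited tables and passed the filter on low counts, which left 16173 genes for testing. Messenger RNA was counted in MCF10DCIS.com, a line of human breast cells from the MCF10A family in which early, in-duct breast cancer is studied. The cultures had received 1 of 5 crystal forms of calcium oxalate, the mineral of some breast microcalcifications. COM crystals are plates of the monohydrate. The other 4 are the dihydrate (COD) in different shapes, dumbbell-like (DB), spherical (SPH), thick bipyramid (TK) and thin bipyramid (TN). There were 4 libraries for each form and 7 for the untreated Control. All flasks were seeded with 500000 cells and kept for 6 h, after which treated flasks received crystals at 0.1 mg/mL. How long the cells were exposed is not stated. It is also not stated whether libraries sharing a group are from different cultures, so the p-values cover only the variation among these libraries, which may be technical. All libraries come from this cell line, so nothing here speaks of other cells.

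Cells make cholesterol from acetyl-CoA through mevalonate, squalene and lanosterol, and they make fatty acids from the same acetyl-CoA through malonyl-CoA. The SREBP transcription factors, encoded by SREBF2 and SREBF1, switch these genes on. When sterols are plentiful, the INSIG proteins hold SREBP precursors in the endoplasmic reticulum, and when sterols run short the precursors move to the Golgi, are cut, and release an active factor. SREBP-2 is known mainly for the cholesterol genes and SREBP-1 for the fatty acid genes. Mammary epithelium uses both branches heavily in lactation.

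By serial number the libraries form 3 runs (1 to 10, 11 to 22 and 23 to 27). What a run stands for is not stated. In run 1, COM, DB, SPH and TN each have libraries A and B, beside Control A and B. In run 2, TK has all of its 4 libraries and each other form has library C, beside Control C to F. In run 3, each form except TK has library D, beside Control G. Library totals ran from 13115669 to 38672521 expected counts (median 19251257). Mean fragment length was 257.8 to 319.1 nt in run 1, 197.6 to 297 nt in run 2 and 215.4 to 247.7 nt in run 3. In run 2, TN C stood apart at 297 nt, the other 11 libraries being at most 243.2 nt. Mitochondrial transcripts took 4.758 to 7.017% of counts in run 1, 2.562 to 5.209% in run 2 and 4.174 to 5.766% in run 3. Basal breast epithelium markers summed to 7300 to 11900 CPM (counts relative to library size) in every library, with none of the 5 at 0, and the 4 general epithelial markers to 3300 to 4930 CPM. Marker sums carry no TMM scaling, whereas the CPM of single genes given below are TMM-scaled. Hepatocyte markers summed to 919 CPM in TN B and to at most 16.8 CPM in the other libraries. The leukocyte sum was also highest in TN B, at 65.1 CPM against a lowest of 4.3 CPM. The 4 adipocyte markers summed to at most 1.53 CPM and the 4 fibroblast markers to 7.22 to 13.4 CPM. Replicates always differed by more than sampling noise (chi-square divided by its degrees of freedom, 2.459 to 70.59 per pair). None was therefore counted as the same library sequenced again, but this cannot tell whether libraries share a culture. The closest were the TK pairs (2.459 to 8.333) and the pairs among Control C, E and F (3.058 to 5.734), while pairs within COM, DB, SPH and TN stood at 10.93 to 70.27. Those closest pairs all lie within run 2, whereas in the other forms only libraries A and B share a run. Chi-square also rises with library totals, which differed, so the parts of form, run and library total in the gap cannot be told apart.

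The stretches upstream of 4 members show the kind of sequence through which SREBP acts with its partners. HMGCS1 and LSS are shown because their levels differed most within a run. INSIG1 is shown because it encodes an INSIG protein, and SREBF2 because it alone held an exact sterol regulatory element. Each runs 5′ to 3′ on the gene's own strand for 250 bases up to the RefSeq start, on GRCh38.p14, with the sterol element, the E-box and the CCAAT box (ATTGG on the other strand) in capitals. The HMGCS1 stretch is chr5:43313413-43313662 on the minus strand, LSS chr21:46228775-46229024 on the minus strand, INSIG1 chr7:155297628-155297877 on the plus strand and SREBF2 chr22:41832855-41833104 on the plus strand.
HMGCS1: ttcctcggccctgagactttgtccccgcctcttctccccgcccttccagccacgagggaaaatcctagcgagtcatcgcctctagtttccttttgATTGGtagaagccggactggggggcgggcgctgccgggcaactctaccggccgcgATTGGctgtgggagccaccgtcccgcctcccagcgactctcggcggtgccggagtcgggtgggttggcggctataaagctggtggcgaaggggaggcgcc
LSS: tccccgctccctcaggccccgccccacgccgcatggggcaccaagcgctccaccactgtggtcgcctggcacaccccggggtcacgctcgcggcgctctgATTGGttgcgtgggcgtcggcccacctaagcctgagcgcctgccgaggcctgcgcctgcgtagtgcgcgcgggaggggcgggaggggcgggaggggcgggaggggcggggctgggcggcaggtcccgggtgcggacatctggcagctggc
INSIG1: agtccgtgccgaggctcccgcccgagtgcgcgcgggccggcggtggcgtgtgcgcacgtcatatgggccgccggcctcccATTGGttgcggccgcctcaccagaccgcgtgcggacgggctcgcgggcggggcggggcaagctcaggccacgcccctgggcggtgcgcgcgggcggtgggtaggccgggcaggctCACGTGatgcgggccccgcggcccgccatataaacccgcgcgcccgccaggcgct
SREBF2: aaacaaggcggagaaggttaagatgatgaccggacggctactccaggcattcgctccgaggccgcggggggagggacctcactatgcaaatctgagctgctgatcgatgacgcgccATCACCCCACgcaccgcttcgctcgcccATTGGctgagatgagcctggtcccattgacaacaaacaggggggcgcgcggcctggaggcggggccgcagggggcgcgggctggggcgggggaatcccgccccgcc

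A RefSeq promoter window, from 250 bases before to 50 after the start, was found for 29 of the 33 members and searched on both strands. The sterol regulatory element, searched with its middle base free and shown as the long run of capitals in the SREBF2 stretch, was in 1 of 29 (3.45%), against 0.154% of all 35116 promoters, and lay 134 to 125 bases before the SREBF2 start. CACGTG, the palindromic E-box that SREBP-1 also binds, was in 4 (13.8%), against 7.26% of all promoters and 9.84% of those of tested genes. Those 4 were LSS, SC5D, INSIG1 and ELOVL5, and the LSS copy lay downstream of the stretch shown. CCAAT, bound by NF-Y, a partner of SREBP, was in 19 (65.5%), against 34.6% of all promoters and 36.7% of the 11130 promoters of tested genes. GGGCGG, bound by Sp1, was in 26 (89.7%), against 45% of all promoters and 68.5% of those of tested genes. The capitalised motifs do not overlap each other. These matches describe letters and do not show binding.

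Levels differed widely between members. On the length-corrected scale of the authors' deposited TPM, the most abundant in untreated cells was FDPS, the farnesyl diphosphate synthase, at 629 ± 58.5 TPM (SD, n = 7). SCD, the stearoyl-CoA desaturase, stood at 506 ± 49.2 TPM and FASN, the fatty acid synthase, at 481 ± 82 TPM, so those neighbours lay within each other's spread. FDFT1, the squalene synthase, followed at 293 ± 19.6 TPM. SREBF1 (185 ± 7.65 TPM) was above SREBF2 (96.6 ± 5.16 TPM). At the low end were FADS2 at 17.3 ± 1.82 TPM, TM7SF2 at 12.6 ± 1.69 TPM and FADS1 at 9.82 ± 1.35 TPM.

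Against untreated cells, with the run in the model, 9 members were called higher and 0 lower for the dumbbells. For the thick bipyramids 6 were called higher and 2 lower, and for the thin bipyramids 3 higher and 0 lower. For the monohydrate plates 1 was called higher and 0 lower, and for the spheres 0 were called. In all, 15 of the 33 were called for at least 1 form, 11 of them for 1 form, 2 for 2 forms and 2 for 3 forms. LSS and SREBF1 were those called for 3. The counts moved with single libraries. DB had 4 calls without DB C, 3 higher and 1 lower. TK had 13 without DB C, 12 without TN C and 5 without TK C. TN had 1 without TN A, 5 without TN B, and 1 higher with 3 lower without TN C. COM had 0 without COM B or COM D. Without a run term DB had 3 and TN 1. A call is a Benjamini-Hochberg adjusted p under 0.05 in edgeR's quasi-likelihood test over all 16173 genes. The share of all genes called was 10% for DB, 15.4% for TK, 11.7% for TN, 6.36% for COM and 0.111% for SPH, and the members' own shares were 27.3%, 24.2%, 9.09%, 3.03% and 0%. The TN and COM shares of members were thus below those of all genes. The median log2 difference of the members was 0.2 for DB, 0.15 for TK, 0.02 for TN, 0.05 for COM and 0.14 for SPH, against medians over all genes of -0.016 to -0.003. For SPH, 30 of 33 members lay above 0, 9 (27.3%) had an unadjusted p under 0.05 against 6.47% of all genes, and 0 were called by edgeR or DESeq2. The 5 comparisons share the same 7 controls and so are not independent of each other. In a joint edgeR test, 9 members differed between any of the 6 groups (23.2% of all genes), and 22 did without TN C.

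**Figure D1:**
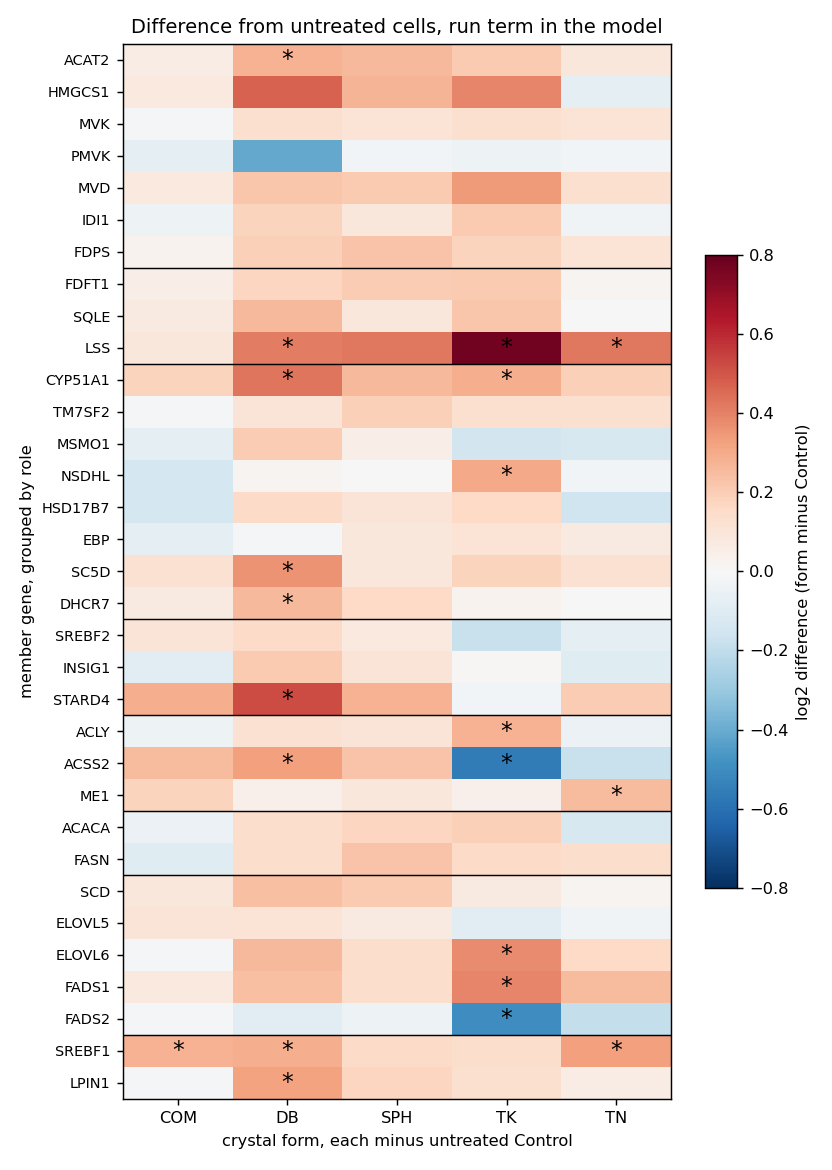
Colour gives the log2 difference of each of the 33 members between a crystal form (columns) and Control, with run in the model, and asterisks mark calls. LSS has the darkest red for TK (0.77), and ACSS2 (-0.56) and FADS2 (-0.5) are blue for TK with no matching blue for DB.

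The mevalonate segment builds the isoprenoid unit. Its 7 members are ACAT2 (thiolase), HMGCS1 (HMG-CoA synthase), MVK and PMVK (mevalonate kinases), MVD (the decarboxylase), IDI1 (the isomerase) and FDPS. Of the 7, ACAT2 alone was called in any control comparison, higher for DB by 0.28 (SE 0.0835, edgeR adjusted p = 0.035). That call rests on DB C, which held 114 CPM while the next DB library held 71.8 CPM, and the difference was 0.1 (adjusted p = 0.41) without it. The call was also lost without DB A, Control C or Control F. ACAT2 shares 2202 bases with SOD2 and 558 with TCP1 on the opposite strand, and since no strand setting is stated, reads from those stretches cannot be told apart. HMGCS1 differed by 0.47 (SE 0.175) for DB and 0.39 (SE 0.188) for TK without passing the test. It shares 1445 bases with AC114947.2 on the opposite strand, with the same limit. PMVK ran from 31.6 to 45.3 CPM in DB libraries, against 34.3 to 72.3 CPM in Control libraries, a log2 difference of -0.41 (SE 0.136, adjusted p = 0.054). MVK, MVD, IDI1 and FDPS were not called for any form, with differences of -0.04 to 0.34.

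FDFT1 and SQLE make squalene and its epoxide, and LSS folds the epoxide into lanosterol, the first sterol. LSS was at 202, 207, 194 and 196 CPM in TK libraries, 160, 128, 167 and 122 in TN, 127, 115, 207 and 130 in DB, 128, 147, 153 and 148 in SPH, 104, 105, 131 and 122 in COM, and 96.7 to 132 (median 110) in Control. Every TK library thus lay above every Control library, and the other forms overlapped Control. LSS (ENSG00000160285, chromosome 21, 46188141 to 46228824, minus strand, GRCh38) rose by 0.77 for TK (SE 0.114, adjusted p = 8.2e-05), by 0.42 for TN (SE 0.109, adjusted p = 0.012) and by 0.41 for DB (SE 0.108, adjusted p = 0.018). For SPH the difference was also 0.42 (SE 0.11) but was not called (adjusted p = 0.23). The TK call held with each of the 27 libraries left out in turn. The DB value was 0.19 (adjusted p = 0.25) without DB C, and the TN call was lost without TN A (adjusted p = 0.1). LSS shares 5096 bases with AP001469.1 and 801 with AP001468.1 on the opposite strand. Without a stated strand setting, reads from those stretches cannot be told apart. FDFT1 and SQLE differed by 0 to 0.26 and were not called for any form.

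The steps from lanosterol to cholesterol are served by CYP51A1 (the lanosterol demethylase), TM7SF2 (a sterol reductase), MSMO1, NSDHL and HSD17B7 (which strip the methyl groups at carbon 4), EBP (the isomerase), SC5D (the desaturase) and DHCR7 (the last reductase). CYP51A1 was at 185, 204, 242 and 157 CPM in DB libraries, 190, 200, 193 and 196 in TK, 174, 148, 217 and 131 in TN, 185, 184, 172 and 155 in SPH, 167, 172, 186 and 138 in COM, and 138 to 162 (median 150) in Control. The TK libraries stood above all Control libraries, as did all DB libraries but DB D. CYP51A1 rose by 0.43 for DB (SE 0.0785, adjusted p = 0.0011) and by 0.29 for TK (SE 0.0821, adjusted p = 0.017), and both calls held with each library left out. It shares 22645 bases with the annotated gene AC000120.2 on the same strand, so its count is uncertain to the extent that reads were shared. SC5D was at 77, 85.1, 71.6 and 63.5 CPM in DB libraries, against 42.8 to 73.1 CPM (median 51.9) in Control, and the groups overlapped. In the other forms SC5D read 72.8, 72.7, 56 and 52 CPM for COM, 73.3, 70.3, 48 and 57 for SPH, 58, 60.3, 59.2 and 61.8 for TK, and 65.6, 56.1, 78.8 and 48.9 for TN. It rose by 0.36 for DB (SE 0.105, adjusted p = 0.031), a call lost without Control A, DB B, DB C or DB D. NSDHL was at 40.4, 36.5, 39.3 and 39.3 CPM in TK libraries, against 28.7 to 43 CPM (median 32.8) in Control, again overlapping. The remaining NSDHL values were 40.6, 31.3, 25.5 and 34 CPM for COM, 35.8, 38.5, 36.5 and 35.9 for DB, 41.3, 34.8, 30 and 38.8 for SPH, and 38.6, 34.6, 34.8 and 33.4 for TN. It rose by 0.3 for TK (SE 0.0924, adjusted p = 0.027), a call lost without TK A or TK C. DHCR7 averaged 339 ± 22.1 CPM in DB libraries (SD, n = 4) and 285 ± 24.4 CPM in Control (n = 7), a rise of 0.26 (SE 0.0776, adjusted p = 0.032) that was lost without Control D, Control F, DB B, DB C or DB D. TM7SF2, MSMO1, HSD17B7 and EBP were not called for any form, with differences of -0.16 to 0.2.

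Of the sterol regulators and carriers, STARD4, which moves free sterol between membranes, was the only one of the 3 called against Control. It was at 89.3, 103, 95 and 72.9 CPM in DB libraries, 81, 87.5, 68.8 and 68.8 in COM, 86.9, 81.7, 67 and 69.3 in SPH, 70.2, 63.1, 90.5 and 61.3 in TN, 61.6, 60.9, 52.9 and 63.4 in TK, and 46.3 to 75.2 (median 63.9) in Control. DB A, B and C stood above every Control library. STARD4 rose by 0.52 for DB (SE 0.103, adjusted p = 0.0023), the largest rise among the members for that form, and the call held with each library left out. For TK the difference was -0.02. SREBF2 averaged 344 ± 9.19 CPM in TK libraries and 388 ± 17.3 CPM in Control, a difference of -0.18 that was not called. INSIG1 differed by -0.1 to 0.21 over the forms and was not called.

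Acetyl-CoA comes from citrate through ACLY and from free acetate through ACSS2, and ME1 supplies NADPH. ACSS2 was at 232, 224, 214 and 224 CPM in TK libraries, 173, 204, 364 and 251 in TN, 298, 314, 439 and 344 in DB, 324, 286, 400 and 288 in SPH, 334, 316, 365 and 291 in COM, and 252 to 318 (median 307) in Control. All TK libraries lay below all Control libraries, while in each of the other forms the C library, of run 2, was the highest. ACSS2 (ENSG00000131069, chromosome 20, 34872146 to 34927962, plus strand, GRCh38) fell by 0.56 for TK (SE 0.104, adjusted p = 0.00067) and rose by 0.33 for DB (SE 0.0977, adjusted p = 0.032). The TK call held with each library left out, and the DB call was lost without Control F, DB B, DB C or DB D. ACSS2 shares 715 bases with GGT7 on the opposite strand, where reads cannot be told apart without a stated strand setting. ACLY was at 491, 458, 457 and 463 CPM in TK libraries, 353, 378, 506 and 381 in DB, 376, 400, 401 and 409 in SPH, 340, 380, 340 and 379 in COM, 356, 283, 432 and 365 in TN, and 321 to 424 (median 384) in Control. The TK libraries stood above all Control libraries for ACLY, and below them for ACSS2. ACLY rose by 0.28 for TK (SE 0.0931, adjusted p = 0.041), a call lost without any of the 4 TK libraries or without Control C, D or E. ME1 rose by 0.25 for TN (SE 0.0776, adjusted p = 0.032), at 51.7 to 77 CPM in TN libraries against 47.2 to 58.1 CPM in Control, and the call was lost without Control E, TN A, TN C or TN D.

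ACACA, which makes malonyl-CoA, and FASN, which builds palmitate from it, were not called for any form with the run in the model, at -0.13 to 0.23. The elongases ELOVL5 and ELOVL6 and the desaturases SCD, FADS1 and FADS2 reshape the chain. ELOVL6, which lengthens palmitate, was at 153, 167, 170 and 162 CPM in TK libraries, 144, 146, 170 and 110 in DB, 129, 136, 128 and 128 in SPH, 114, 116, 137 and 103 in COM, 134, 107, 174 and 113 in TN, and 97.9 to 144 (median 119) in Control. The TK libraries lay above every Control library. ELOVL6 rose by 0.38 for TK (SE 0.112, adjusted p = 0.02), a call lost without TK C (adjusted p = 0.054). FADS1 and FADS2, the delta-5 and delta-6 desaturases of polyunsaturated fatty acids, moved in opposite directions in TK cells. FADS1 was at 44, 40.6, 42.2 and 42.1 CPM in TK libraries, 39.4, 29.6, 41.1 and 31 in TN, 32.4, 35.5, 40.1 and 32.5 in DB, 28.6, 31.4, 35.7 and 35.5 in SPH, 31.4, 28.4, 37.1 and 28.3 in COM, and 24.2 to 34.1 (median 31.4) in Control. FADS2 was at 24.7, 23.8, 24.3 and 24.2 CPM in TK libraries, 24.7, 25.8, 34.3 and 28.6 in TN, 28.2, 31.6, 26.7 and 33.7 in DB, 35, 33.5, 33.1 and 24 in SPH, 31.7, 31.3, 38 and 27.8 in COM, and 28 to 37.6 (median 33) in Control. For both genes the TK and Control libraries did not overlap, with FADS1 above and FADS2 below. FADS1 rose by 0.39 (SE 0.0956, adjusted p = 0.0062) and FADS2 fell by 0.5 (SE 0.102, adjusted p = 0.0017), and both calls held with each library left out. The genes overlap by 29694 bases on opposite strands of chromosome 11 in GENCODE 29, so without a stated strand setting reads from the shared stretch cannot be told apart. FADS2 also shares 4265 bases with FEN1 on its own strand. SCD and ELOVL5 were not called for any form, with differences of -0.09 to 0.24.

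SREBF1 encodes SREBP-1, and LPIN1 the lipin that makes diacylglycerol. SREBF1 was at 420, 475, 436 and 449 CPM in COM libraries, 444, 380, 458 and 519 in DB, 418, 436, 529 and 457 in TN, 412, 419, 420 and 372 in SPH, 430, 425, 396 and 405 in TK, and 344 to 408 (median 370) in Control. All COM and all TN libraries stood above all Control libraries, as did 3 of the 4 DB libraries. SREBF1 rose by 0.28 for COM (SE 0.0739, adjusted p = 0.021), by 0.29 for DB (SE 0.0737, adjusted p = 0.013) and by 0.33 for TN (SE 0.0732, adjusted p = 0.0044). The COM call was lost without COM B or COM D, the DB call without DB D and the TN call without TN C. Within runs its differences were all above 0, at 0.25, 0.25 and 0.27 for COM, 0.13, 0.32 and 0.48 for DB and 0.18, 0.53 and 0.29 for TN in runs 1, 2 and 3, of which the TN value of run 2 passed the test. LPIN1 was at 155, 153, 189 and 158 CPM in DB libraries, 120, 138, 133 and 128 in COM, 147, 151, 149 and 139 in SPH, 149, 166, 140 and 157 in TK, 113, 121, 178 and 138 in TN, and 122 to 148 (median 136) in Control. All DB libraries lay above all Control libraries. It rose by 0.32 for DB (SE 0.0845, adjusted p = 0.017), a call lost without DB C (adjusted p = 0.07).

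**Figure D2:**
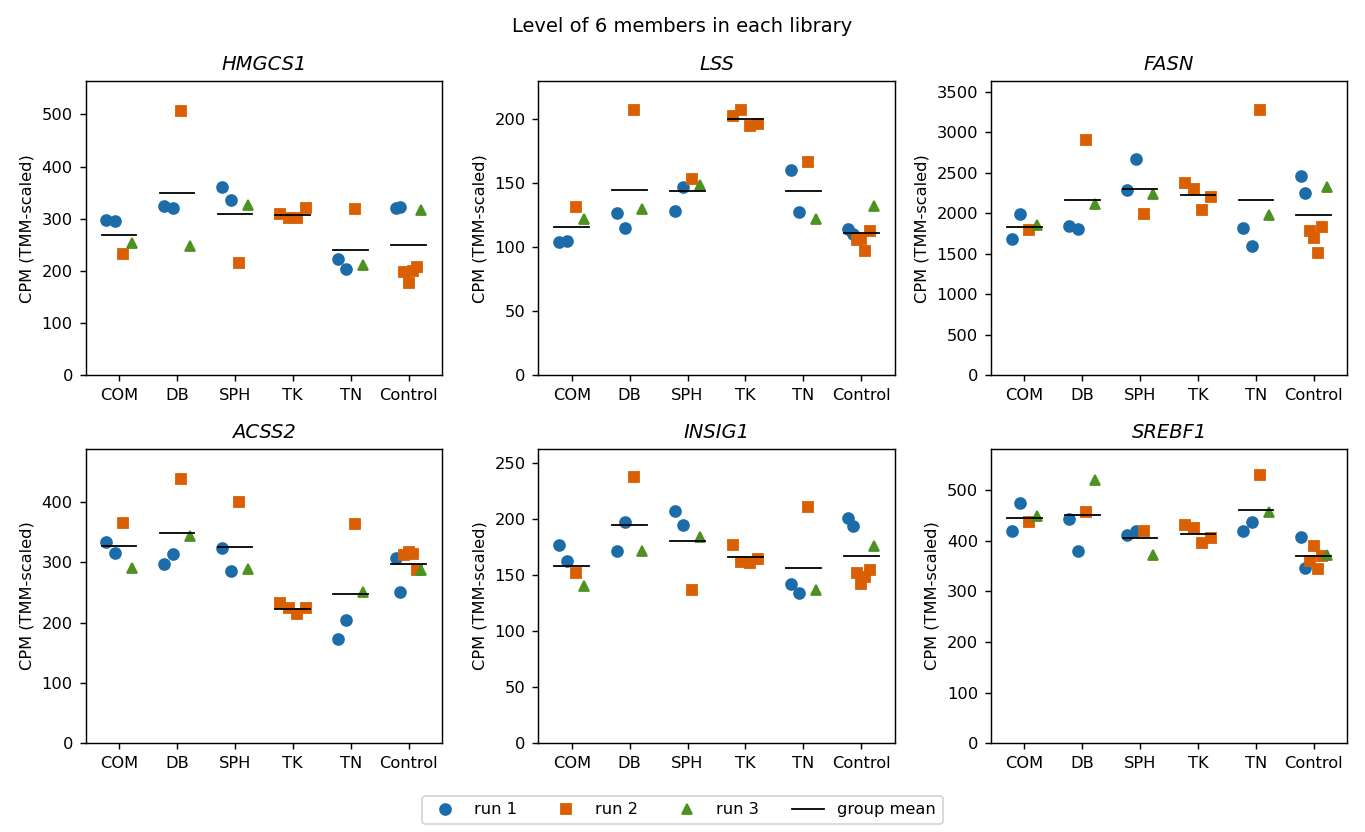
Levels (TMM-scaled CPM) of 6 members in each library, by group, with colour and shape giving the run and a line the group mean. Untreated HMGCS1 of run 2 lies at 178 to 207 CPM, below the other untreated libraries, and DB C (506 CPM) and the TK libraries (301 to 321 CPM) lie above it.

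Untreated cells themselves differed between runs. The libraries were divided by run with this difference already known, so what follows describes it and is no test of it. In run 2, 11 of the 33 members were called lower than in run 1 (7 of 21 sterol genes and 4 of 12 fatty acid genes) and 0 higher, against 7.46% and 6.47% of all genes called lower and higher. HMGCS1 averaged 196 ± 12.5 CPM in run 2 Control (SD, n = 4) and 322 ± 1.27 CPM in run 1 Control (n = 2), a log2 difference of -0.72. MSMO1 averaged 128 ± 5.51 CPM in run 2 and 202 ± 6.01 CPM in run 1, a log2 difference of -0.66. The other 9 were SC5D (-0.49), FASN (-0.47), HSD17B7 (-0.45), IDI1 (-0.44), INSIG1 (-0.4), SQLE (-0.33), SCD (-0.31), ELOVL5 (-0.31) and ELOVL6 (-0.29). Control G, of run 3, was nearer to run 1, with 318 CPM of HMGCS1 and 171 CPM of MSMO1. All 4 untreated libraries of run 2 lay below both of run 1 for 16 members and above them for 0, against 18.1% and 17.8% of all genes. Fragment length and mitochondrial share differed between the runs in the same libraries, and their part in the difference cannot be told apart from the run.

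**Figure D3:**
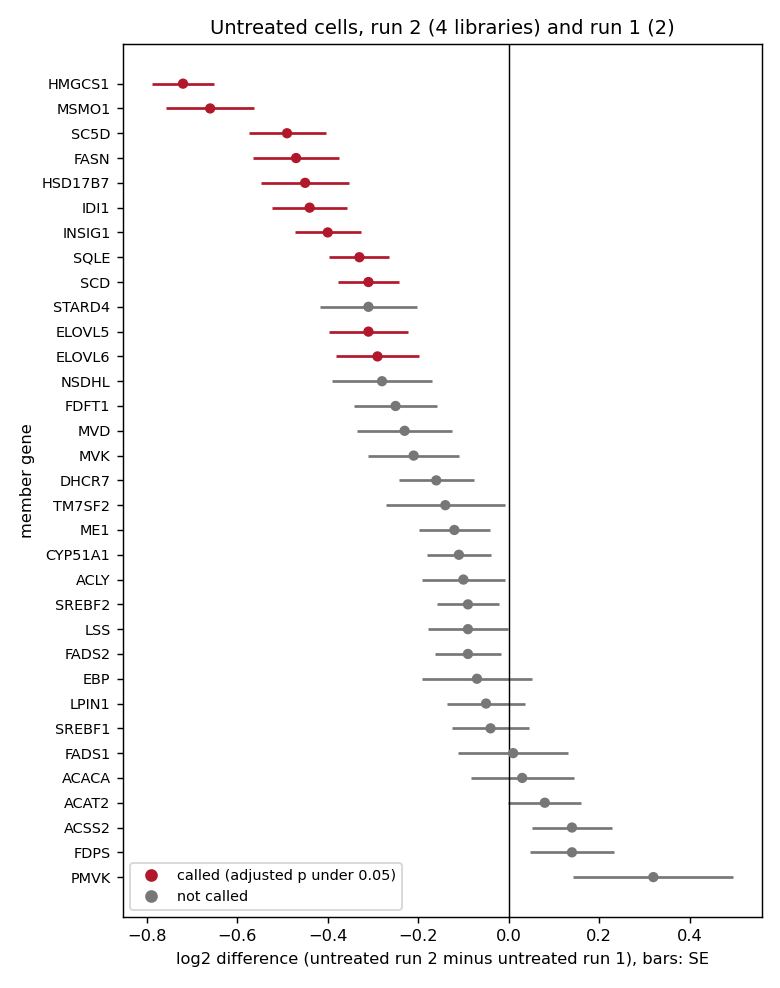
Log2 difference between untreated cells of run 2 (4 libraries) and run 1 (2 libraries) for the 33 members, with SE bars. The 11 called members, in red, all lie below 0, from HMGCS1 at -0.72 to ELOVL6 at -0.29.

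Because of this, each form was also compared with the untreated cells of its own run. All 4 TK libraries are in run 2, beside Control C to F. Within that run 17 members rose and 2 fell for TK, where the model with a run term called 8, and 6.41% of all genes were called higher and 6.13% lower. LSS rose by 0.92 (SE 0.0733, adjusted p = 8.3e-07) and HMGCS1 by 0.66 (SE 0.0573, adjusted p = 2.7e-06). HMGCS1 was at 309, 301, 301 and 321 CPM in TK libraries and at 178 to 207 CPM in run 2 Control libraries. That TK level lay near those of untreated cells in runs 1 and 3, at 321, 323 and 318 CPM. ELOVL6 (0.55), MVD (0.49), FADS1 (0.48), FASN (0.39), CYP51A1 (0.38) and ACLY (0.38) followed, then NSDHL (0.34), HSD17B7 (0.33), IDI1 (0.31), SQLE (0.31), ACAT2 (0.3), ACACA (0.3), FDFT1 (0.29), SC5D (0.29) and SCD (0.18). ACSS2 (-0.46, SE 0.0722, adjusted p = 0.00054) and FADS2 (-0.46, SE 0.0625, adjusted p = 0.00018) fell. All 4 TK libraries lay above all 4 run 2 Control libraries for 21 members and below them for 3, against 11.3% and 10.4% of all genes. Chi-square was measured only for pairs within a group, and the TK pairs and the pairs among Control C, E and F were the closest of those. No TK library was set against a Control library in this way. Whether the libraries of run 2 share a culture or preparation is not stated. The basal marker sum was 7440 to 8010 CPM in TK libraries, against 8220 to 10100 CPM in Control libraries, and the epithelial sum was 4030 to 4510 CPM, against 3310 to 3930 CPM, without overlap in either. The part of these in the TK results was not tested. MSMO1, the member with the second largest gap between untreated runs, differed by -0.01 for TK, at 134, 116, 131 and 128 CPM in TK libraries and 122 to 134 CPM in run 2 Control libraries.

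For DB and TN the run 2 library, DB C and TN C, stood apart from the other libraries of its form. Each is 1 library, so run and library cannot be told apart, and its error is borrowed from the spread of the other groups. The calls within run 2 therefore describe DB C and TN C. In DB C 16 members were called higher than in run 2 Control and 0 lower, against 0.482% of all genes called higher. HMGCS1 was at 506 CPM in DB C and averaged 196 ± 12.5 CPM in Control, a difference of 1.37. LSS (0.97), MVD (0.84), FASN (0.77), HSD17B7 (0.75) and STARD4 (0.74) came next, and the other 10 differed by 0.51 to 0.7. Within runs 1 and 3, 0 members were called for DB by edgeR, with 5 and 4 at an unadjusted p under 0.05 and 2.1% and 2.28% of all genes called, and the members' median difference was 0.51 in run 2, 0.02 in run 1 and -0.03 in run 3. The change in the DB difference between run 2 and run 1 was itself called for 5 members, against 0.0866% of all genes. These were HMGCS1 (1.37), FASN (1.14), MVD (0.97), LSS (0.87) and INSIG1 (0.77), and 2 were called without Control A, DB A or DB B. The DB values of run 3 rest on 1 library of each side, DB D and Control G. The same holds for every other form of run 3, so 0 calls there do not show that differences are absent.

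By the median over the members, TN A and TN B lay below the controls of their run and TN C above. Within run 1, where these are the TN libraries, 11 members fell and 1 rose, against 6.75% and 7.48% of all genes. HMGCS1 was at 222 and 205 CPM in TN A and TN B and at 321 and 323 CPM in Control A and B, and fell by 0.59 (SE 0.0803, adjusted p = 0.00018). ACSS2 (-0.57), MSMO1 (-0.56), INSIG1 (-0.52), FADS2 (-0.49), ACACA (-0.47), FASN (-0.46), HSD17B7 (-0.35), SREBF2 (-0.32), SCD (-0.3) and SQLE (-0.3) also fell, and LSS rose by 0.36. In TN C 15 members were called higher than in run 2 Control and 0 lower, against 3.5% of all genes called higher. FASN was at 3276 CPM in TN C and 1509 to 1826 CPM in run 2 Control libraries, a difference of 0.94, and HMGCS1 differed by 0.71. Within run 3, TN D gave 0 calls in edgeR, with 0.0989% of all genes called, 6 members at an unadjusted p under 0.05 and HMGCS1 at -0.59 (adjusted p = 0.068). The median difference was 0.38 in run 2, -0.18 in run 1 and -0.15 in run 3, where TN D is set against Control G alone. The change between run 2 and run 1 was called for 19 members, against 5.81% of all genes, the largest being FASN (1.41), HMGCS1 (1.3), MSMO1 (1.16) and INSIG1 (1.01), and for 11 without TN B. The TN values with a run term therefore average opposite differences, and TN C differs from the rest of run 2 in fragment length while TN B holds the hepatocyte transcripts. The basal marker sums were 7580 CPM in TN A and 7300 CPM in TN B, below every Control library (8220 to 10100 CPM), and the epithelial sums 4930 and 4630 CPM, above every Control library (3310 to 3930 CPM). The part of all of these in the TN values was not tested. Without TN C the model with a run term called 1 member higher and 3 lower for TN, and without TN B and TN C it called 0 higher and 2 lower.

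COM and SPH showed no called member within any run in edgeR. For COM, 8, 6 and 4 members had an unadjusted p under 0.05 in runs 2, 1 and 3, and for SPH 7, 3 and 0. The COM share of all genes called was 0.501% in run 2, 4.09% in run 1 and 0.0989% in run 3, and the SPH share was 0.0556%, 0.0618% and 0.00618%. Their change between run 2 and run 1 was called for 0 members by edgeR and by DESeq2, with 6 members for COM and 0 for SPH at an unadjusted p under 0.05, where 0.0247% and 0% of all genes were called. The 4 forms with libraries in runs 1 and 2 share the untreated libraries of those runs, so each change between runs also contains the untreated difference.

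**Figure D4:**
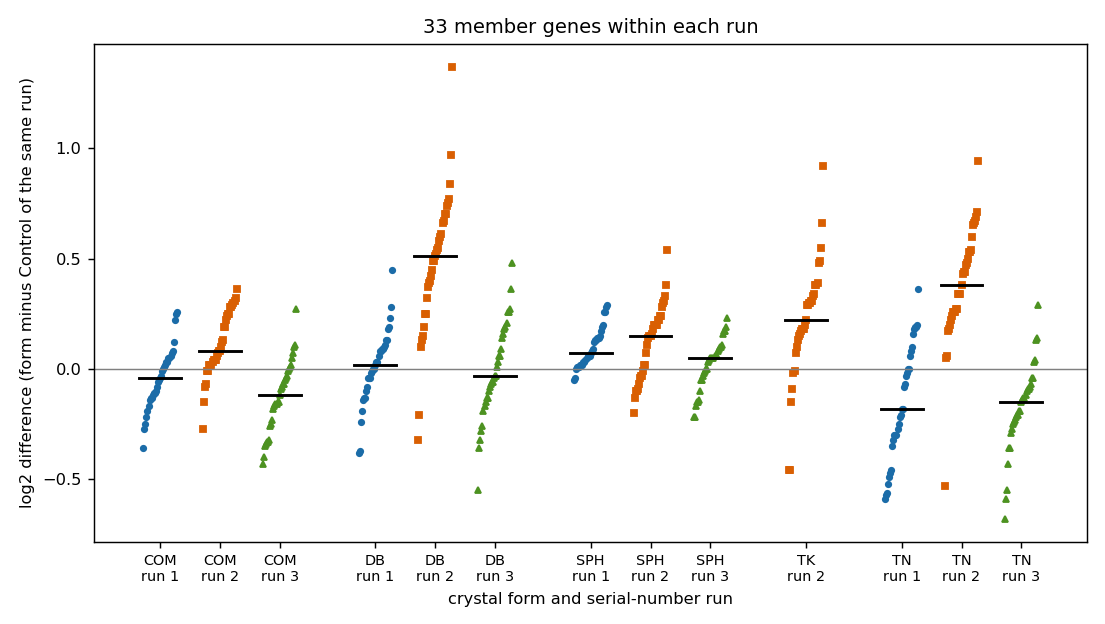
Each point is 1 of the 33 members, as the log2 difference between a form and the Control libraries of the same run, sorted within a column, with a line at the median. The DB and TN columns of run 2 have medians of 0.51 and 0.38, and their run 1 columns 0.02 and -0.18.

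To describe a library as a whole, each gene's CPM was divided by its mean over the 27 libraries and the ratios were averaged. For the 21 sterol genes this relative level was 1.01 to 1.06 in TK, 1.28 in DB C and 1.11 in TN C, against 0.859 to 0.901 in run 2 Control. In run 1 it was 0.908 to 0.981 in TN A and TN B and 1.06 to 1.16 in SPH A and SPH B, against 0.973 to 1.07 in Control. In run 3 it was 0.871 in TN D, 0.93 in COM D, 0.998 in DB D and 1.04 in SPH D, against 1.03 in Control G. For the 12 fatty acid genes it was 1.24 in TN C, 1.2 in DB C and 1 to 1.05 in TK, against 0.866 to 0.968 in run 2 Control. TN A and TN B were lowest for these, at 0.829 to 0.905, against 1.01 in Control A and B.

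Between forms at the same dose, both bipyramids were set against the rounded dihydrate forms, DB and SPH. With the run in the model, 5 members were lower in the bipyramids and 0 higher, against 9.46% and 10.3% of all genes. ACSS2 was lower by 0.65 on the log2 scale (difference -0.65, SE 0.0822, adjusted p = 8.5e-06), at 173 to 364 CPM in TN, 214 to 232 in TK, and 286 to 439 in DB and SPH. STARD4 (-0.31, SE 0.088), FADS2 (-0.28, SE 0.0812), SREBF2 (-0.24, SE 0.0597) and DHCR7 (-0.2, SE 0.0649) were the others. Without TN C the count was 10 lower and 0 higher, without TN A it was 3 lower, and without DB C it was 4 lower and 1 higher. TN and TK did not differ for any member in edgeR or DESeq2 (0.216% of all genes called), and 1 was called without TN C. At an unadjusted p under 0.05 there were 9, among them ACSS2 at 0.38 (SE 0.12), LSS at -0.35 (SE 0.135) and HMGCS1 at -0.46 (SE 0.216), so differences of that size are not shown to be absent. COM against the mean of the 4 dihydrate forms differed for LSS alone, lower by 0.41 (difference -0.41, SE 0.101, adjusted p = 0.022), against 3.79% of all genes. That call was lost without COM A or COM B, and 2 members were called without Control A, Control F, DB D, SPH A or TN C.

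**Figure D5:**
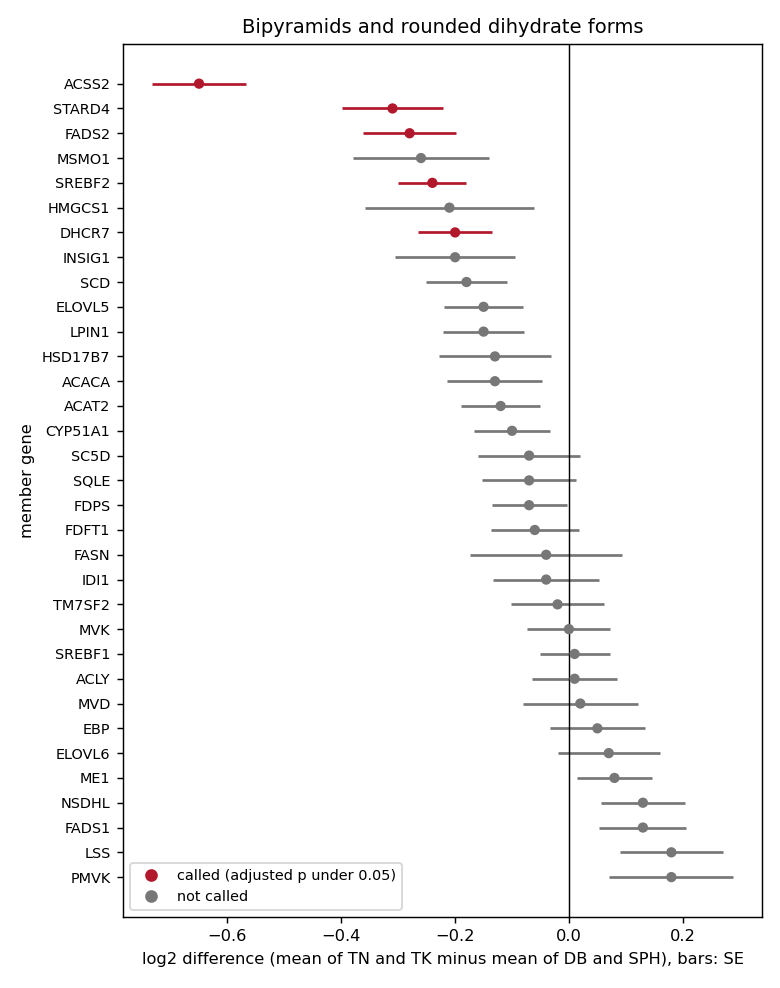
Log2 difference between the bipyramids (mean of TN and TK) and the rounded forms (mean of DB and SPH) for the 33 members, with SE bars and run in the model. The 5 called members, in red, lie below 0, with ACSS2 at -0.65 apart from STARD4 at -0.31.

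Genes around the synthesis pathway were counted in 5 lists, to be read against the 15.4% of all genes called for TK, 11.7% for TN, 10% for DB, 6.36% for COM and 0.111% for SPH. Outside those lists, RNF139, a sterol-sensing ubiquitin ligase, rose by 0.28 for COM (SE 0.0808, edgeR adjusted p = 0.036) and by 0.37 for DB (SE 0.0803, adjusted p = 0.0051). Of 14 genes of sterol uptake, trafficking, storage and efflux, 2 rose and 2 fell for TK, 3 rose and 1 fell for TN, 2 rose for DB and 0 changed for COM or SPH. NPC2, which takes cholesterol out of the lysosome, fell by 0.65 for TK (SE 0.1) and by 0.32 for TN (SE 0.0962, a call lost without TN B at adjusted p = 0.066), while LIPA, the lysosomal lipase that frees it, rose by 0.45 for TN (SE 0.088). GRAMD1A, a sterol carrier between membranes, fell by 0.39 for TK, and NPC1, the partner of NPC2, rose by 0.3 for DB, as did SOAT1, the enzyme that esterifies cholesterol, by 0.23.

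Of 13 tested genes of fatty acid activation and glycerolipid assembly, 3 rose and 1 fell for TK, 2 rose for DB and 2 for TN. ACSL1, an acyl-CoA synthetase, rose by 0.48 for TK (SE 0.0798) and 0.42 for DB (SE 0.0773), and ACSL3 rose by 0.33 for DB. ACSL5, called higher for TN by 1.17 (SE 0.342), was at 4.07 CPM in TN B, 1.14 to 1.4 CPM in the other TN libraries and 0.528 to 1.33 CPM in Control. Its difference was 0.56 (adjusted p = 0.24) without TN B, the library with 919 CPM of hepatocyte markers. LPCAT3, which puts polyunsaturated chains into phospholipids, rose by 0.33 for TK (SE 0.0566) and 0.27 for TN (SE 0.0539). In fatty acid oxidation, PPARA, the receptor that drives it, fell by 0.73 for TK (SE 0.123) and 0.55 for TN (SE 0.113), and CPT1A, which passes acyl chains into mitochondria, rose by 0.37 for TK (SE 0.0623), with the other 8 genes not called. Of 9 genes of the isoprenoid branches, PGGT1B, a subunit of a prenyltransferase, rose for COM (0.32), TK (0.33) and TN (0.43), and PDSS1, of ubiquinone synthesis, rose for TK (0.36) and TN (0.34). Of 9 tested genes of other elongation and desaturation steps, HSD17B12, a reductase of the elongation cycle, rose for COM (0.29), DB (0.31) and TN (0.28), while for TK SCD5, a second stearoyl-CoA desaturase, rose by 0.33 and FADS3 fell by 0.43.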

How the data were processed

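For each library the authors deposited expected counts and TPM per gene, per the file headers. Trim Galore, RSEM, Bowtie2 and GRCh38 are named in the submitters' processing notes. The sources used here give no versions, annotation release or strand setting. RSEM divides reads that fit several genes, so pseudogene copies can take reads, as HSD17B7P2 may from HSD17B7. Expected counts were rounded. In R 4.3.3 with edgeR 4.0.16 (limma 3.58.1), low genes were removed with filterByExpr over the 6 groups and libraries were scaled by TMM. The main quasi-likelihood model had group means plus an additive run term, over all 27 libraries. A second model had 16 means, 1 per group and run. Both were tested by F-tests, which are two-sided, with Benjamini-Hochberg adjustment over all tested genes (threshold 0.05), and were tested on simulated data. Errors are SE of log2 differences; the SD is over libraries. DESeq2 1.42.0 was an alternative. TPM served only for levels between genes. The runs were read from the serial numbers of the deposited names. Gene positions are from GENCODE 29 and promoters from RefSeq. Other members also overlap annotated genes, and only some of these overlaps are named above. Members, lists and the run division were chosen with earlier results of these data known. Every member is described, the 12 called in the most control comparisons (ties by size) with all libraries, and from each other list at most 2 called genes per comparison. The result of 1 of the lists, other than RNF139, is not reported here.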

Additional observations from a re-analysis of the deposited data

Results flagged for a closer look

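The change in a form's difference from untreated cells between run 2 and run 1 was called for 5 members for DB and 19 for TN, by an interaction test in edgeR. For DB these were HMGCS1 (1.37), FASN (1.14), MVD (0.97), LSS (0.87) and INSIG1 (0.77). For TN these were FASN (1.41), HMGCS1 (1.3), MSMO1 (1.16), INSIG1 (1.01), SC5D (0.87), ELOVL6 (0.82), ACSS2 (0.81), SCD (0.78), SQLE (0.77), STARD4 (0.75), ACACA (0.69), LPIN1 (0.65), IDI1 (0.63), ELOVL5 (0.63), HSD17B7 (0.6), DHCR7 (0.56), CYP51A1 (0.54), FADS2 (0.53) and SREBF2 (0.51). All are log2 values of run 2 minus run 1, with the same untreated libraries in both forms. Each value thus contains the difference between untreated cells of the 2 runs, which was known beforehand. Every member called lower in untreated cells of run 2 was also among those listed for TN, as were HMGCS1, FASN and INSIG1 among those for DB. These calls are therefore not independent of the untreated difference. The run 2 side is 1 library in each, DB C or TN C, with its error borrowed from the other groups, so run and library cannot be told apart.

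Single libraries stood far from the others of their group in 13 of 198 groups of values, by Dixon's test, where chance gives about 1 in 20. That rate assumes independent genes and libraries without run differences, whereas all groups but TK pool the runs. The count is therefore not read as an excess. DB C and TN C are the only run 2 libraries of their groups, so run and library cannot be told apart. DB C was highest of the DB libraries for ACAT2 (114 CPM), LPIN1 (189 CPM), LSS (207 CPM) and PMVK (45.3 CPM). TN C was highest of the TN libraries for HMGCS1 (319 CPM) and INSIG1 (211 CPM). Among untreated libraries, Control A was highest for MVK (60.5 CPM) and SREBF2 (424 CPM) and Control D for PMVK (72.3 CPM). DB D was highest for TM7SF2 (16.4 CPM), TK B lowest for TM7SF2 (12.5 CPM), TK C lowest for SCD (2080 CPM) and SPH D lowest for SREBF1 (372 CPM).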

How the results depend on the processing

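Of 305 values of called members under other settings, 240 kept their direction and call, 62 lost the call and 3 changed sign. Those 3 were the run 3 values of ACAT2 (-0.06) and LSS (-0.03) for DB and of LSS (-0.12) for TN. With 1 library left out, 1510 of 1650 values kept the call, 140 lost it and 0 changed sign. Many of these values left out a library outside the groups compared, which bears less directly on the call. The share kept is therefore not read as a measure of how firm the calls are. Without a run term 3 members were called for DB and 1 for TN, against 9 and 3. Without the filter on low counts there were 2 for COM, 14 for DB, 1 for SPH, 2 for TN against TK, 4 for COM against the dihydrates, 8 for bipyramids against rounded forms, 22 in the joint test and 8 for the DB change between runs. DESeq2 called 2 for COM against the dihydrates, 14 in the joint test and 10 for the DB change between runs. Within runs the counts were 0, 16 and 0 for DB and 12, 15 and 0 for TN in runs 1, 2 and 3, 19 for TK in run 2 and 0 for COM in each run. Without TN B and TN C, a setting chosen after seeing the data, there were 2 for COM against the dihydrates and 8 for bipyramids against rounded forms. With TN C placed in run 1, TN had 2 higher and 1 lower.

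With the replicate letter of the titles as a replicate block, DB had 2 calls, TK 3, and COM, SPH, TN and TN against TK 0 each, with 0 for COM against the dihydrates, 1 for bipyramids against rounded forms and 2 in the joint test. With the run term fitted, libraries of the same letter did not deviate together (correlation -0.37 to 0.143 over 60 pairs, 3 above 0.1). Without that term their median correlation was 0.0685, against -0.0215 for pairs of different letters. In COM, DB, SPH and TN the letters follow the runs, so these correlations cannot tell whether the letter marks a pairing. Leaving out 1 library gave 0 to 1 for COM, 4 to 12 for DB (4 without DB C), 0 to 0 for SPH, 5 to 13 for TK (5 without TK C, 13 without DB C), 1 to 5 for TN (1 without TN A, 5 without TN B, 1 higher and 3 lower without TN C), 0 to 1 for TN against TK, 0 to 2 for COM against the dihydrates, 3 to 10 for bipyramids against rounded forms, 7 to 22 in the joint test, 9 to 12 for untreated cells, 2 to 5 and 11 to 20 for the DB and TN changes between runs, and 0 to 0 for those of COM and SPH. The 4 for DB without DB C were 3 higher and 1 lower. The cause of these shifts was not tested. Single libraries of a form in runs 2 and 3 limit the within-run values there, except those of TK. Run 3 also has a single untreated library, Control G.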
